A study of Mus musculus with 12 samples.

Results

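Caerulein, the agent used to cause pancreatitis in this study, acts on acinar cells through the cholecystokinin A receptor and the calcium signal that follows it. The genes described here are 10 genes of that route and of acinar calcium handling, chosen by name for their function: the receptor Cckar, the muscarinic receptor Chrm3, the calcium release channels Itpr2 and Itpr3, the calcium entry genes Stim1 and Orai1, the pump Atp2a2, the calcineurin genes Ppp3ca and Rcan1, and the mechanosensitive channel Piezo1. All 10 were found by symbol among the 46095 genes of the count table, and all 10 had enough counts to be tested among 13743 genes.

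In an acinar cell, cholecystokinin or acetylcholine activates Gq and phospholipase C, inositol trisphosphate opens release channels in the endoplasmic reticulum, and short calcium spikes drive the secretion of digestive enzymes. When the store empties, STIM proteins open ORAI channels in the plasma membrane, and SERCA pumps refill the store. Overstimulation turns the spikes into a sustained rise in calcium, which activates the phosphatase calcineurin and is a known early event in acute pancreatitis.

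The libraries came from whole pancreas of mice at postnatal day 56. There were 6 from C57BL/6J wild type mice (WT) and 6 from Axl-/-Mertk-/- mice (AMKO), which lack a pair of receptor tyrosine kinases that recognise dying cells. Every mouse in both groups had been given caerulein at 100 µg/kg in 10 hourly intraperitoneal injections and was killed 12 h after the first of them, so every level below is a level in pancreatitis and none is a resting level. The background strain of the AMKO mice and the cells in which the receptors are lost are not stated in the labels used here, and a difference of background cannot be told apart from the loss of the receptors. Which library came from which mouse is not stated, so p-values measure the spread between these libraries.

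Library totals ran from 10668637 to 15184371 counts. Axl, one of the targeted genes, stood at 545 to 1086 counts in WT and 66 to 187 in AMKO, while Mertk was at 33 to 170 and 55 to 144 counts. Whole-gene counts do not show which exon of Mertk was read. Of the 18 acinar markers, 17 were tested and Prss2 was listed at 0, and their summed level was 219604 to 332533 CPM (counts scaled for library size after TMM normalisation) in WT and 197950 to 373518 in AMKO, so the acinar markers of the labelled tissue were present. Some libraries stood apart. WT 1 to 3 held 2 to 7 counts of the liver gene Alb, against 141 to 309 in the other 9 libraries. The 4 lowest leukocyte marker scores were those of WT 3, AMKO 6, AMKO 3 and WT 6 (-1.65, -1.29, -1.08 and -0.75). AMKO 4 was next at -0.52, so the cut at 4 libraries, called leukocyte-poor below, was a choice and marks no clear gap. Duct markers (9 tested) summed to 12745 to 16926 CPM in WT and 11489.5 to 18126 CPM in AMKO, fibroblast markers (12 tested) to 714 to 1257 and 566 to 1146 CPM, and islet markers (8 tested) to 313 to 885 and 146 to 2094 CPM. Of the 12 fibroblast markers 10 had a log2 fold change below 0, with a median of -0.40. Only 1, the receptor gene Pdgfrb, was called lower in AMKO (-0.62, SE 0.16, adjusted p = 0.0330), as were 3.37% of all genes tested.

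None of the 10 genes passed the test between the genotypes at an adjusted p under 0.05 (edgeR quasi-likelihood F test, adjusted over all 13743 genes), while 5.78% of all genes tested did. At an unadjusted p under 0.05 there were 6 of the 10, against 21.9% of all genes. Of these 6, Cckar and Itpr3 were lower in AMKO (background 11.3% of all genes) and Stim1, Ppp3ca, Rcan1 and Piezo1 were higher (background 10.6%). The 10 genes were chosen with earlier results of these data known. Their share beside that of all genes is therefore a description and not evidence about the route. By log2 fold change the largest difference of the 10 was that of Cckar, with 7.76 ± 3.02 CPM in WT and 4.30 ± 1.12 CPM in AMKO (SD, n = 6 each). DESeq2 called 3 of the 10 (Cckar, Ppp3ca and Rcan1) where it called 8.39% of all genes, and limma voom with quality weights called 2 (Rcan1 and Piezo1) where it called 12.1%. For none of the 10 were the CPM of the genotypes free of overlap, which 3.54% of all genes tested were.

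**Figure D1:**
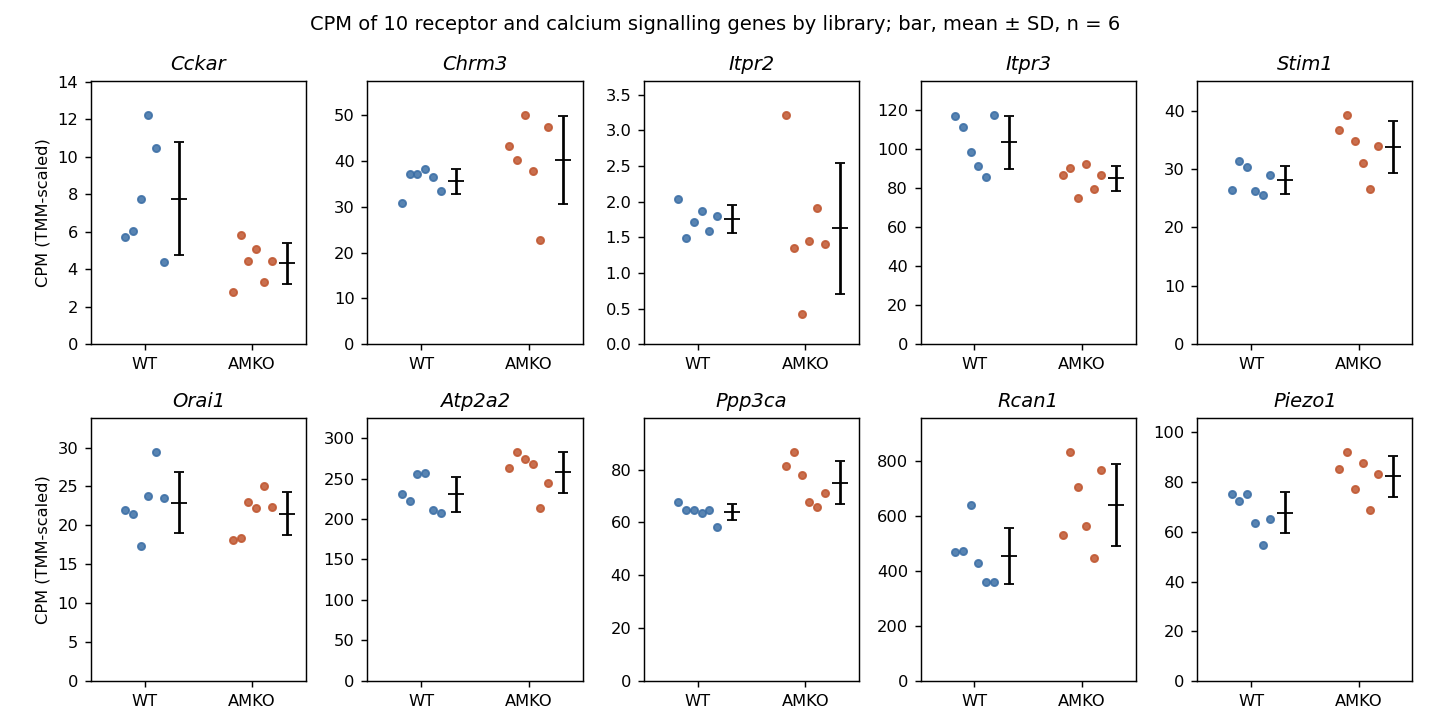
TMM-scaled CPM of each of the 10 genes in every library; points are the 6 WT and 6 AMKO libraries, and the bar beside them is the mean ± SD. Every AMKO library lay below the WT median for Cckar and Itpr3 and above it for Ppp3ca, yet the ranges of the genotypes overlapped for all 10 genes.

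Cckar (chromosome 5, 53697776 to 53707705, minus strand, GRCm38) encodes the receptor that caerulein binds. Its level in WT was lowest at 4.39 CPM in WT 6, had a median of 6.89 and was highest at 12.2 CPM in WT 4. In AMKO the lowest was 2.78 CPM in AMKO 1, the median 4.43 and the highest 5.80 CPM in AMKO 2. All 6 AMKO libraries lay below the WT median and 2 of them below every WT library, so the groups met only at the low end of WT. The log2 fold change was -0.85 (SE 0.26, adjusted p = 0.0675), a level 1.80-fold lower in AMKO. The counts behind it were small, 66 to 163 in WT and 41 to 73 in AMKO, and its variation between libraries was greater than that of 82.9% of all genes tested.

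The level of Cckar was also read beside the acinar content of each library, since in bulk tissue fewer acinar cells and less of a transcript per cell cannot be told apart. The acinar markers took 27.3% ± 2.83 of counts in WT and 28.2% ± 2.89 in AMKO (SD, n = 6 each), and the shares differed by less than either SD (exact permutation p = 0.576, two-sided). Of the 17 acinar markers tested, 2 rose in AMKO (background 2.41% of all genes) and none fell (background 3.37%). The 2 were the acinar transcription factor genes Ptf1a (1.21, SE 0.26, adjusted p = 0.0145) and Bhlha15 (0.86, SE 0.14, adjusted p = 0.0032). The list does not hold every acinar gene. Pla2g1b and Cuzd1, named below for their likeness to Cckar, are not on it and were lower in AMKO (-0.65 and -0.50, adjusted p = 0.0418 and 0.0496). Both were picked for that likeness over the same libraries, so their direction is not independent of Cckar. Of the 17 listed acinar markers tested, 13 had a log2 fold change above 0 and 4 below, with a median of 0.09. With the mean log2 level of the acinar markers as a covariate, Cckar was called lower in AMKO, at -1.10 (SE 0.19, adjusted p = 0.00646). That fit called 4.34% of all genes and no other of the 10. The covariate includes Ptf1a and Bhlha15, which rose in AMKO, so it carries genotype besides acinar content, and that fit cannot separate them. With the leukocyte score as the covariate, Cckar (-0.86, SE 0.25, adjusted p = 0.0410) and Rcan1 (0.49, SE 0.14, adjusted p = 0.0374) were called, where 10.8% of all genes were.

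The WT libraries differed among themselves. WT 4 and WT 5, at 12.2 and 10.5 CPM, were the highest for Cckar, while WT 6, which like them held the liver transcript, was the lowest. The log2 fold change of Cckar was -1.05 (adjusted p = 0.137) when only WT 4 to 6 served as controls. It was -0.60 (adjusted p = 0.255) when WT 1 to 3 were the controls. Without the 4 leukocyte-poor libraries it was -1.02 (adjusted p = 0.185). Leaving out WT 6 made the call, with an adjusted p of 0.0433.

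Chrm3 (chromosome 13, 9875486 to 10360847, minus strand) encodes the M3 muscarinic receptor, through which acetylcholine reaches the same Gq pathway. It ran from 30.9 to 38.2 CPM in WT with a median of 36.8, and from 22.8 to 50.003 CPM in AMKO with a median of 41.8. The WT libraries were close together, while AMKO held 4 libraries above every WT library and 1, AMKO 5, below every one of them. The log2 fold change was 0.18 (SE 0.15, adjusted p = 0.516), and leaving out 1 library moved it between 0.11 (without AMKO 3) and 0.32 (without AMKO 5, adjusted p = 0.0474). It was 0.02 (adjusted p = 0.975) without the 4 leukocyte-poor libraries and 0.11 (adjusted p = 0.739) with the acinar covariate.

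Because both receptors are counted in the same library, their ratio depends on the scaling of libraries only through the prior count of 2 added to each. The log2 ratio of Cckar to Chrm3 was -2.26 ± 0.48 in WT and -3.18 ± 0.47 in AMKO (SD, n = 6 each). AMKO minus WT came to -0.92 (two-sided exact permutation p = 0.00866, 0.0346 adjusted over the 4 ratios computed). The ratio was thus 1.89-fold lower in AMKO, with 3 of 6 AMKO libraries below every WT library and none above the WT median of -2.32. With WT 1 to 3 as controls the difference was -0.77 (exact permutation p = 0.0238). With WT 4 to 6 it was -1.07 (exact permutation p = 0.0952).

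**Figure D2:**
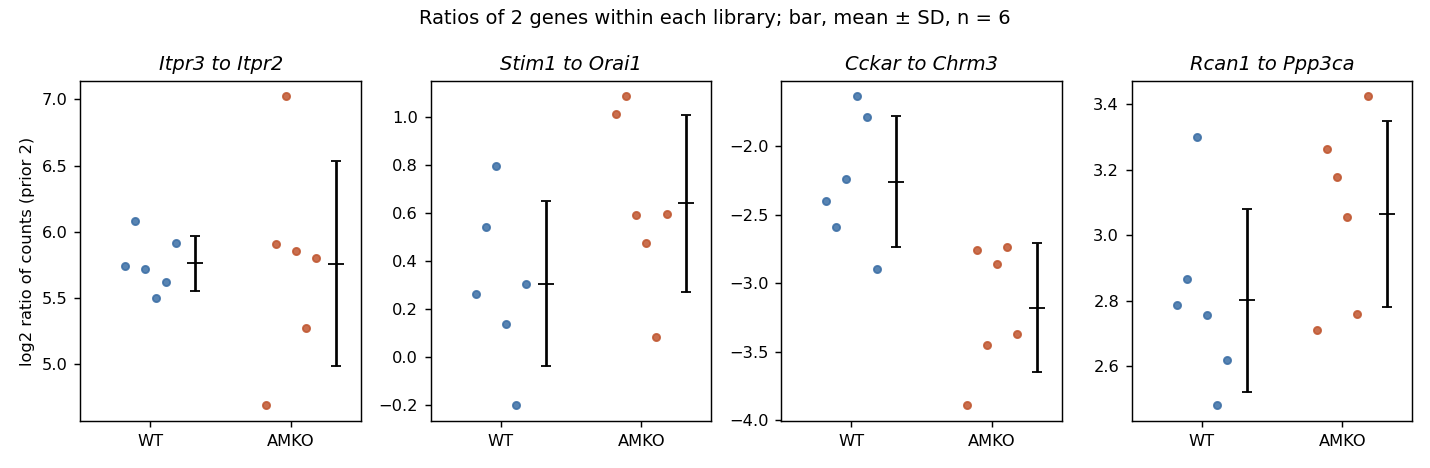
Log2 ratio of the counts of a pair of genes within each library, with a prior count of 2; points are libraries and bars the mean ± SD of 6. The Cckar to Chrm3 ratio was lower in AMKO, and the other 3 ratios overlapped widely.

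Of 12 other listed receptors of secretagogues, nucleotides and proteases, 10 were tested, 3 fell in AMKO (background 3.37% of all genes) and none rose (background 2.41%). The other 7 did not pass, and 3 of the 10 had a log2 fold change above 0, with a median log2 fold change of -0.18 against -0.002 over all genes tested. Cckbr, the gastrin and cholecystokinin B receptor, ran from 5.61 to 8.52 CPM in WT and from 2.49 to 3.89 CPM in AMKO, with no overlap (log2 fold change -1.12, SE 0.16, adjusted p = 0.00153). Grpr, the receptor of gastrin-releasing peptide, went from 1.84 ± 0.41 to 0.42 ± 0.25 CPM (-2.09, SE 0.35, adjusted p = 0.0045), also with no overlap, on 18 to 34 counts in WT and 1 to 10 in AMKO. Sctr, the secretin receptor, went from 5.17 ± 1.59 to 2.19 ± 0.68 CPM (-1.24, SE 0.24, adjusted p = 0.0101), on 36 to 117 counts in WT and 17 to 46 in AMKO. All 3 calls held in each of the 12 fits that left out 1 library. Against WT 4 to 6 alone Cckbr and Grpr passed (adjusted p = 0.0295 and 0.0498) and Sctr did not (0.0621), and against WT 1 to 3 alone Cckbr did (0.0246) while Sctr and Grpr did not (0.0730 and 0.0627). Without the 4 leukocyte-poor libraries Cckbr passed (0.0488) and Grpr and Sctr did not (0.0700 and 0.150). Sctr is also a receptor of duct cells, and of the 9 duct markers 2 fell in AMKO (background 3.37% of all genes). These were Epcam, with a log2 fold change of -0.50 (adjusted p = 0.00851), and Muc1, with -0.53 (adjusted p = 0.0195). Their part in the receptor values was not tested.

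**Figure D3:**
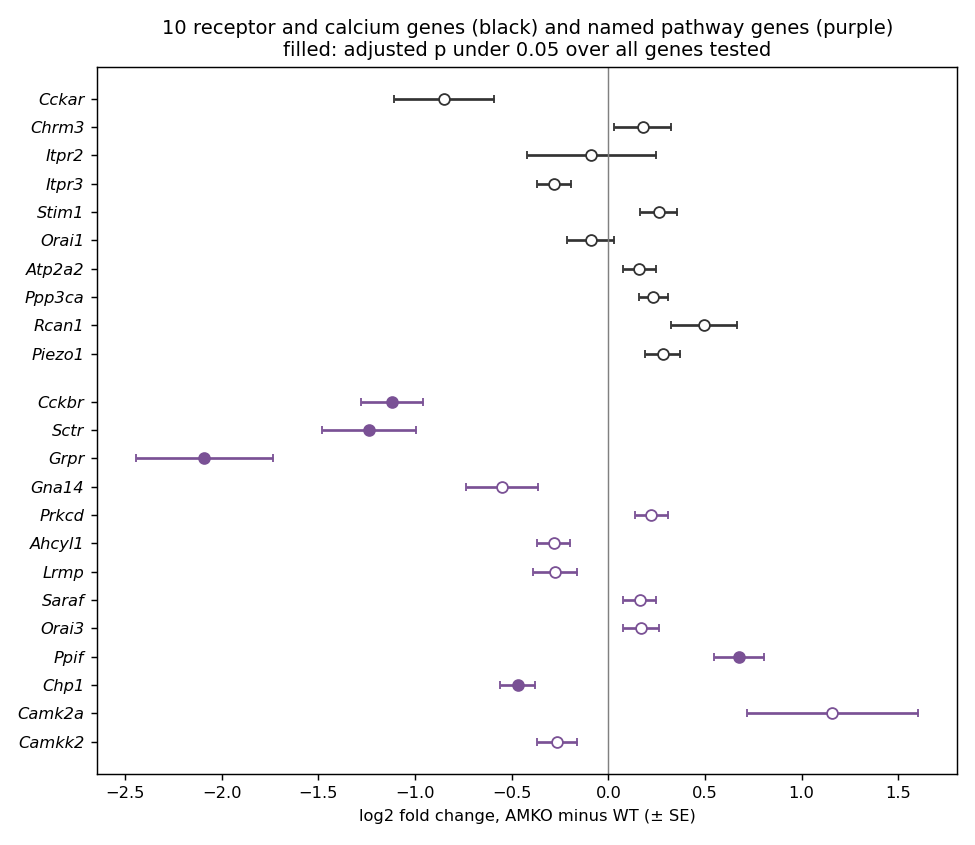
Log2 fold change (AMKO minus WT) with its standard error for the 10 genes and for 13 other genes of the pathway; filled symbols mark an adjusted p under 0.05 over all genes tested. Open symbols stand at all 10 genes, and filled ones at Cckbr, Sctr, Grpr, Ppif and Chp1.

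Of the genes between receptor and calcium store, all 19 listed G protein, phospholipase C and regulator genes were tested and none passed. Of the 19, 8 had an unadjusted p under 0.05 (4 higher and 4 lower in AMKO), against 21.9% of all genes. Gna14, a Gq family subunit, had the smallest p (-0.55, SE 0.19, adjusted p = 0.0972), followed by Prkcd, the protein kinase C delta of acinar cells (0.22, SE 0.08, adjusted p = 0.133).

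Itpr3 (chromosome 17, 27057304 to 27122223, plus strand) encodes the type 3 inositol trisphosphate receptor, which with type 2 forms the apical release channels of acinar cells. It ran from 85.5 to 117 CPM in WT with a median of 105, and from 75.0 to 92.3 CPM in AMKO with a median of 86.6. All 6 AMKO libraries were below the WT median, and the overlap came from WT 4 and WT 5, the lowest of WT. The log2 fold change was -0.28 (SE 0.09, adjusted p = 0.0775), and -0.19 with WT 4 to 6 or -0.36 with WT 1 to 3 as controls (adjusted p = 0.455 and 0.0825). Without WT 5 it passed, with an adjusted p of 0.0398.

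Itpr2 (chromosome 6, 146108299 to 146502223, minus strand), the type 2 receptor gene, had few reads, with 5 to 52 counts in a library. WT libraries lay between 1.49 and 2.03 CPM and AMKO libraries between 0.43 and 3.21 CPM, with AMKO 3 the lowest and AMKO 1 the highest of all 12. The coefficient of variation was 11.2% in WT and 56.3% in AMKO, and the log2 fold change of -0.09 (SE 0.33, adjusted p = 0.906) turned positive in 3 of the other fits. The log2 ratio of Itpr3 to Itpr2 was 5.76 ± 0.21 in WT and 5.76 ± 0.78 in AMKO (exact permutation p = 0.998). Of 14 other release symbols listed, of which Lrmp and Irag2 name the same gene, 10 were tested and none passed. Ahcyl1, which encodes the inhibitory partner IRBIT of the release channel, came closest (-0.28, SE 0.08, adjusted p = 0.0642), then Lrmp (-0.28, SE 0.11, adjusted p = 0.163).

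Stim1 (chromosome 7, 102267806 to 102437319, plus strand) encodes the calcium sensor of the endoplasmic reticulum. It ran from 25.6 to 31.4 CPM in WT with a median of 27.7, and from 26.5 to 39.2 CPM in AMKO with a median of 34.4. In AMKO 4 libraries lay above every WT library, while AMKO 5 lay below the WT median. Its log2 fold change was 0.26 (SE 0.10, adjusted p = 0.127), and 0.34 without AMKO 5 (adjusted p = 0.0296).

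Orai1 (chromosome 5, 123015074 to 123030456, plus strand) encodes the pore that STIM1 opens. It lay between 17.4 and 29.4 CPM in WT and within that range in every AMKO library, from 18.1 to 25.0 CPM (-0.09, SE 0.12, adjusted p = 0.709). The fold change was -0.23 with WT 4 to 6 and 0.08 with WT 1 to 3 as controls, and -0.21 without the 4 leukocyte-poor libraries (adjusted p = 0.430, 0.807 and 0.563). Leaving out 1 library moved it between -0.16 (without WT 3) and -0.01 (without WT 5). The log2 ratio of Stim1 to Orai1 was 0.31 ± 0.34 in WT and 0.64 ± 0.37 in AMKO (exact permutation p = 0.128, 0.190 adjusted over the 4 ratios). AMKO minus WT was 0.33, and 0.56 with WT 4 to 6 or 0.11 with WT 1 to 3 as controls (unadjusted exact permutation p = 0.0714 and 0.619). None of the 13 tested of 17 other entry symbols listed passed, of which Stimate and Tmem110 name the same gene, and none had an unadjusted p under 0.05. Among them were Saraf, which turns off store-operated entry (0.16, SE 0.09, adjusted p = 0.282), and the channel gene Orai3 (0.17, SE 0.09, adjusted p = 0.298).

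Atp2a2 (chromosome 5, 122453513 to 122502225, minus strand) encodes SERCA2, the pump that returns calcium to the store. It ran from 207 to 256 CPM in WT with a median of 227, and from 213 to 283 CPM in AMKO with a median of 265. Again 4 AMKO libraries were above all of WT and AMKO 5 was the lowest of its group (0.16, SE 0.09, adjusted p = 0.293). Of 20 other listed pump, exchanger and mitochondrial calcium genes 14 were tested, 1 rose (background 2.41% of all genes) and none fell (background 3.37%). This was Ppif, which encodes cyclophilin D of the mitochondrial permeability transition pore. It ran from 33.2 to 42.1 CPM in WT and from 42.6 to 72.5 CPM in AMKO, with no overlap (0.67, SE 0.13, adjusted p = 0.00883), from a mean of 37.2 to one of 59.3 CPM. It was called in all 12 fits without 1 library and without the 4 leukocyte-poor libraries (adjusted p = 0.0488), and missed the threshold with WT 4 to 6 or WT 1 to 3 as controls (0.0618 and 0.129). Of the 14 genes tested, 4 had an unadjusted p under 0.05, all higher in AMKO (background 10.6% of all genes).

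Ppp3ca (chromosome 3, 136670124 to 136937727, plus strand) encodes the calcineurin catalytic subunit A alpha. It lay between 58.4 and 67.6 CPM in WT with a median of 64.6, and between 65.9 and 86.6 CPM in AMKO with a median of 74.6. Every AMKO library was above the WT median and 4 were above every WT library. Its log2 fold change was 0.23 (SE 0.07, adjusted p = 0.0827).

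Rcan1 (chromosome 16, 92391953 to 92470867, minus strand) encodes a regulator that binds and inhibits calcineurin, and it was the most abundant of the 10 genes. It ran from 360 to 639 CPM in WT with a median of 449, and from 447 to 833 CPM in AMKO with a median of 634. WT 3 was far above the other WT libraries, which ended at 472 CPM, and 5 of the 6 AMKO libraries exceeded the WT median. The log2 fold change was 0.49 (SE 0.17, adjusted p = 0.102), a level 1.41-fold higher in AMKO, and it passed without WT 3 or without AMKO 5 (adjusted p down to 0.0407). With WT 4 to 6 as controls it was 0.75 and with WT 1 to 3 it was 0.28 (adjusted p = 0.0894 and 0.526). The log2 ratio of Rcan1 to Ppp3ca was 2.80 ± 0.28 in WT and 3.06 ± 0.28 in AMKO (exact permutation p = 0.143, 0.190 adjusted over the 4 ratios). AMKO minus WT was 0.26, and 0.45 with WT 4 to 6 or 0.08 with WT 1 to 3 as controls (unadjusted exact permutation p = 0.0476 and 0.738).

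RefSeq gives Rcan1 transcripts that begin at separate starts 66091 bp apart, and in mouse and human the transcript from the downstream start is known as the one that calcineurin and NFAT induce. The deposited counts are per gene and do not separate these transcripts, so the sequences around both starts are shown for orientation. Each covers 250 bases before to 50 after the start (RefSeq, GRCm38.p6, minus strand, written 5′ to 3′). Capitals mark GGAAA, the core that NFAT proteins bind, or TTTCC, the same core on the other strand. GGAAA and TTTCC share no letters in these windows.

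Rcan1 upstream start, chr16:92466120-92466419: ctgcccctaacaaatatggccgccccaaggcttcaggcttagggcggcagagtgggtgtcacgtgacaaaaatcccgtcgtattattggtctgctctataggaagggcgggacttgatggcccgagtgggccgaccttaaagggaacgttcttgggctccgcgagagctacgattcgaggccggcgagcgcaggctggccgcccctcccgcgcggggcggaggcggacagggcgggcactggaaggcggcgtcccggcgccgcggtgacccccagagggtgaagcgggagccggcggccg

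Rcan1 downstream start, chr16:92400029-92400328: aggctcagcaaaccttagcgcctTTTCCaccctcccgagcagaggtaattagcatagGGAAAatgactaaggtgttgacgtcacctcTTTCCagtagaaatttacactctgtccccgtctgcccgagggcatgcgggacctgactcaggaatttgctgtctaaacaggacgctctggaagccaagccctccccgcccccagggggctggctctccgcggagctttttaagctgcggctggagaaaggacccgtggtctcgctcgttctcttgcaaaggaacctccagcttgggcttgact

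The upstream window held no match and the downstream window 3, of which 1 was on the strand shown and 2 were on the other. Of all 32851 promoter windows of this length in the table, 61.3% held at least 1 match and 9.42% at least 3. A match is a description of letters and not a binding site.

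Among the 17 other calcineurin, NFAT and coactivator genes listed, 16 were tested, 1 fell (background 3.37% of all genes) and none rose (background 2.41%). It was Chp1, a calcineurin B homologous protein that can inhibit calcineurin and is a partner of sodium-proton exchangers. It ran from 97.6 to 138 CPM in WT and from 73.2 to 96.6 CPM in AMKO, with no overlap (-0.47, SE 0.09, adjusted p = 0.00937). The call held in the 12 fits without 1 library, against WT 1 to 3 alone (0.0291) and without the 4 leukocyte-poor libraries (0.0488), but not against WT 4 to 6 alone (0.134). Of the 16 genes tested, 5 had an unadjusted p under 0.05, all lower in AMKO (background 11.3% of all genes). None of the 11 tested of 13 calmodulin and calmodulin kinase genes passed, with Camk2a (1.16, SE 0.44, adjusted p = 0.141) and Camkk2 (-0.27, SE 0.11, adjusted p = 0.151) at the smallest p. Camk2a had few reads, 2 to 21 counts in WT and 18 to 43 in AMKO.

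Piezo1 (chromosome 8, 122481698 to 122551329, minus strand) encodes a channel that admits calcium when a membrane is stretched, and is known for its part in pressure-induced pancreatitis in mice. It ran from 54.7 to 75.4 CPM in WT with a median of 68.8, and from 68.6 to 92.1 CPM in AMKO with a median of 84.2. Here 5 AMKO libraries lay above every WT library and AMKO 5 at about the WT median. The log2 fold change was 0.28 (SE 0.09, adjusted p = 0.0871), and 0.44 with WT 4 to 6 or 0.15 with WT 1 to 3 as controls (adjusted p = 0.0812 and 0.489). Piezo1 is also a gene of endothelial and red blood cells. Endothelial markers summed to 205 to 295 CPM in WT and 166 to 256 in AMKO, with 9 of 10 tested and Cldn5 listed at 0. Of the 9, 8 had a log2 fold change below 0, with a median of -0.14. Only Kdr, the VEGF receptor 2 gene, was called lower (background 3.37% of all genes). Red cell markers summed to 18.1 to 276 CPM in WT (mean 65.7) and 7.39 to 44.95 in AMKO (mean 15.6), so the ranges overlapped. Of 6 red cell markers 4 were tested and none was called. All 4 were lower at an unadjusted p under 0.05 (background 11.3% of all genes). The part of endothelial and red cells in the Piezo1 values was not tested. Piezo1 overlaps Ctu2, a protein-coding gene on the other strand, and since the use of strand in counting is not known from the labels, reads of the overlap are uncertain.

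Per kilobase of exon, so that genes can be compared, Rcan1 led in WT with 164 ± 37.0 CPM per kb, followed by Atp2a2 with 43.7 ± 4.06. Ppp3ca (13.4 ± 0.63), Orai1 (12.2 ± 2.10) and Itpr3 (11.5 ± 1.51) came next, and their ranges over the WT libraries overlapped from neighbour to neighbour. Piezo1 (8.24 ± 0.99) and Chrm3 (8.20 ± 0.64) did not differ beyond their spread, and Stim1 was below both at 6.33 ± 0.54. Cckar, at 2.11 ± 0.82 CPM per kb, was next to last, and Itpr2 was last at 0.148 ± 0.017. In AMKO the order was the same except that Piezo1 (10.01 ± 1.01) stood above Itpr3 (9.46 ± 0.72), with overlapping ranges.

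**Figure D4:**
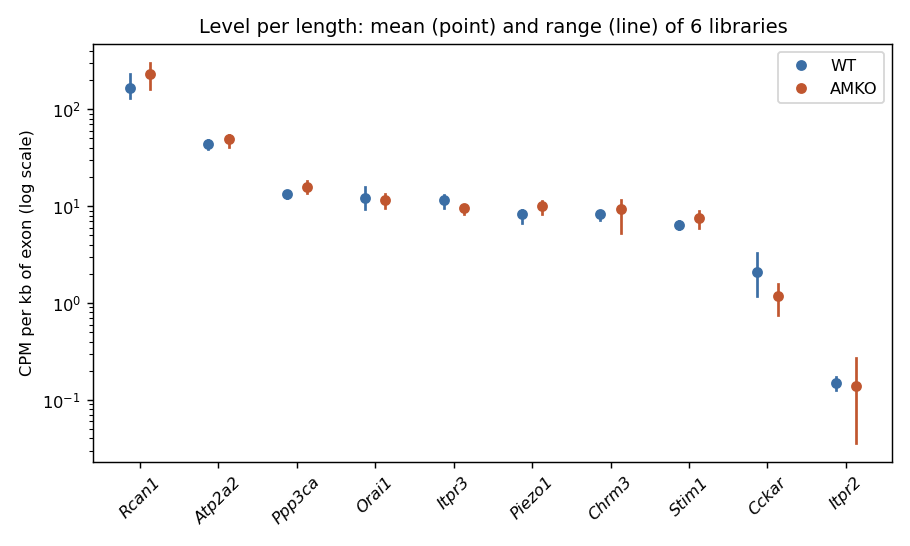
Level of each gene as CPM per kilobase of exon on a log axis; points are the mean and lines the range of the 6 libraries of a genotype. Rcan1 and Atp2a2 stand apart at the top, Cckar and Itpr2 at the bottom, and the order differs between genotypes only for Itpr3 and Piezo1.

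Some libraries were lowest or highest for several of the 10 genes. AMKO 5 was the lowest AMKO library for 6 of the 10 genes (Chrm3, Stim1, Atp2a2, Ppp3ca, Rcan1 and Piezo1) and the highest for Orai1, while Cckar and Orai1 were lowest in AMKO 1 and Itpr2 and Itpr3 in AMKO 3. AMKO 2 was the highest of its group for Cckar, Stim1, Atp2a2, Ppp3ca, Rcan1 and Piezo1. AMKO 5 and AMKO 1 had the highest leukocyte scores of all 12 libraries, 1.27 and 1.38. For each of the 6 genes lowest in AMKO 5, AMKO 1 was higher, as for Stim1 (36.7 against 26.5 CPM) and Ppp3ca (81.2 against 65.9 CPM). The part of leukocyte content in the low values of AMKO 5 was not tested. Without AMKO 5, 5 of the 10 genes passed the test, all higher in AMKO (Chrm3, Stim1, Ppp3ca, Rcan1 and Piezo1), and 1140 of 13867 genes did overall. Leukocyte markers summed to 250.4 to 1329 CPM in WT and 344 to 1681 CPM in AMKO, and none of the 14 tested of 15 passed.

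In all, 93 of the 112 other symbols listed for the pathway, which name 110 genes, were tested. Of these 4 fell (Cckbr, Sctr, Grpr and Chp1) and 1 rose (Ppif), against 463 and 331 of all 13743. At an unadjusted p under 0.05 there were 24 of the 93, 9 higher and 15 lower in AMKO, against 21.9% of all genes. The lists too were chosen with earlier results of these data known. The median log2 fold change was 0.05 over these 93, 0.17 over the 10 genes and -0.002 over all genes tested. Among those not tested were Casr, Chrm1, Ryr2, Ryr3 and the SERCA3 gene Atp2a3, each with at most 34 counts in any library. The listed Irag1, Septin2 and Mcub stood in the table under the older symbols Mrvi1, Sept2 and Ccdc109b and are not among the 93, and their log2 fold changes were -0.26, -0.09 and 0.28 (adjusted p = 0.770, 0.384 and 0.151).

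The genes most like Cckar over the 12 libraries, by the smallest root mean square difference of centred log2 CPM, were Tspan1 (0.33), Frk (0.34), Cuzd1 (0.35), Pla2g1b (0.36) and Hnf4a (0.37), where the median over 8567 genes of at least 3 log2 CPM was 0.61. For Rcan1 they were Mark4 (0.15), Atf4 (0.15), Nol9 (0.15), Arhgef2 (0.16) and Csrp1 (0.16), against a median of 0.42. By the same measure Cckar itself lay 0.58 and Rcan1 0.39 from a flat level, near those medians. The likeness to Cckar was thus looser than that to Rcan1. Cckar, at a mean log2 CPM of 2.62, was itself below the cut set for the genes compared. The 5 nearest to Cckar were all called lower in AMKO (-0.70, -0.54, -0.50, -0.65 and -0.51 in the order given, adjusted p = 0.0496 or less). Of the 5 nearest to Rcan1, Atf4 and Nol9 were called higher (0.57 and 0.43, adjusted p = 0.0159 and 0.0284). Genes picked for likeness share the direction of Cckar or Rcan1 by choice, so these calls are not independent of them. The likeness itself is a description over the same libraries and was not tested.

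**Figure D5:**
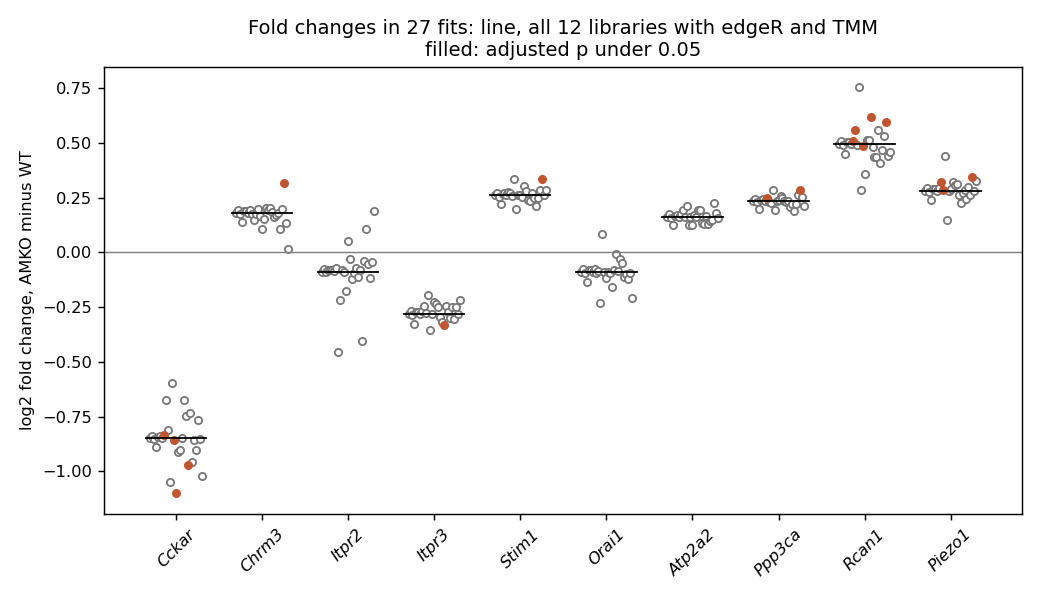
Log2 fold change of each gene in 27 fits, of which 26 are alternatives; the line is edgeR with TMM on all 12 libraries, DESeq2 differs from it in scaling, filter and test together, and filled points have an adjusted p under 0.05. Cckar stayed below 0 and Rcan1, Piezo1, Ppp3ca and Stim1 above 0 in every fit, whereas Itpr2 and Orai1 crossed it.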

How the data were processed

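Total RNA of mouse pancreas was sequenced in 12 libraries. The authors deposited a table of whole-number counts, 1 column per library, named as in the sample titles. HISAT2 2.0.4 and the mm10 build are named, per the submitters' processing notes. The labels and notes do not name the counter, the annotation, the strand setting or the rule for reads with several matches.

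Groups follow the genotype in the titles. Counts were fitted with edgeR 4.0.16 (R 4.3.3), quasi-likelihood F test, in a model of genotype alone. TMM gave the scaling, filterByExpr the filter on low counts, and p-values were adjusted (Benjamini-Hochberg) over 13743 genes. CPM are TMM-scaled, and log2 CPM use a prior count of 2. Ratios and shares were compared by two-sided exact permutation tests (SciPy 1.17.1). Alternatives used DESeq2 1.42.0, limma 3.58.1 and other scalings, filters, covariates and libraries. The fit was checked on simulated data, where it called 46.3% of 1.5-fold, 71.2% of 2-fold and 93.5% of 4-fold changes. There were 139 calls, of which 3 were false, against 794 in the data. Simulated counts were drawn independently for each gene, without differences between libraries that many genes share. The rates may therefore differ in the data. Changes smaller than 1.5-fold were not simulated. Pairs of libraries within a genotype differed beyond sampling noise, with a chi-square of at least 9.93 times its degrees of freedom. Scores are means of centred log2 CPM over a marker list.

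Positions and exon lengths come from GENCODE M21 on GRCm38, the assembly that mm10 names. Lengths are the union of coding transcripts' exons. Promoters come from RefSeq, where 7 of the 10 genes had an entry. BLAST 2.17.0 (95% identity over 300 bp) matched Piezo1 to Ctu2 (2680 counts over all libraries), the gene that overlaps it on the other strand. It also found near-identical stretches of Atp2a2 in Gm30970, with 61 counts over all libraries. Named genes were the 10, Axl and Mertk, the 5 genes nearest in pattern to Cckar and to Rcan1, and every called gene of 7 lists of pathway genes by role, or the 2 of smallest p where a list had none. Called marker genes are named outside this rule, after their values were seen. Members and lists were chosen with earlier results of these data known.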

Additional observations from a re-analysis of the deposited data

How the results depend on the processing

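Of 260 values of the 10 genes under other settings, 239 kept direction and call, 17 gained a call and 4 changed sign. Against 0 of the 10 called, DESeq2 called 3, voom 2, the leukocyte covariate 2 and the acinar covariate 1, and leaving out 1 library gave 0 to 5. Against 794 of all genes, total count scaling called 456, DESeq2 1259, voom 1664, the leukocyte covariate 1484, WT 4 to 6 alone 167 and WT 1 to 3 alone 231, and leaving out 1 library gave 411 (without AMKO 3) to 1140 (without AMKO 5). Leaving out the 4 leukocyte-poor libraries, a setting chosen after seeing the data, called 98. Against 5 pathway genes, voom called 9, the leukocyte covariate 10, WT 4 to 6 alone 2, WT 1 to 3 alone 2 and the leukocyte-poor setting 3, and leaving out 1 library gave 5 to 10 (without AMKO 1). Itpr2 turned to 0.052 with the acinar covariate, to 0.19 without the leukocyte-poor libraries and to -0.40 to 0.11 without 1 library, and Orai1 to 0.083 against WT 1 to 3 alone. Over all 12 libraries the difference of the log2 ratio of Itpr3 to Itpr2 was -0.004, and 0.036 with a prior count of 0.5. Against WT 4 to 6 alone the differences of log2 ratios were -1.07 for Cckar to Chrm3 (exact permutation p = 0.0952) and 0.45 for Rcan1 to Ppp3ca (exact permutation p = 0.0476). They were 0.56 for Stim1 to Orai1 and 0.081 for Itpr3 to Itpr2. Against WT 1 to 3 alone they were -0.77, 0.08, 0.11 and -0.09, and none of these p-values is adjusted over the ratios. Without 1 library they ran from -1.05 to -0.78, from 0.19 to 0.36 (highest without WT 3), from 0.23 to 0.45 (highest without AMKO 5) and from -0.26 to 0.21, in the same order. The cause of these changes was not tested.

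With a replicate block 1 of the 10 genes was called (Piezo1, 0.28, adjusted p = 0.0427) and 910 of all genes. Deviations of same-numbered libraries correlated at -0.16 to 0.35, over 0.1 in 4 of 6 pairs, and 2 of 6 WT libraries correlated best with their own number, so the numbers were not taken to pair samples. Counts in a library were as low as 1 for Grpr, 2 for Camk2a, 5 for Itpr2 and 15 for Gna14. They were as low as 17 for Sctr, 23 for Cckbr and 41 for Cckar. The part of depth in the spread of these genes was not tested.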
